A study of Homo sapiens with 6 samples.

Results

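The 36 kinetochore and centromere genes examined here were chosen by name, out of 28395 genes counted, with earlier results of these data known. They were picked for the protein complexes they encode, by a rule that used no measured value. They cover 8 roles: the centromeric nucleosome and its loading (4 genes), the constitutive centromere network (14), the Mis12 complex (4), the Ndc80 complex (4), the Knl1 complex (2), the Ska complex (3), the chromosomal passenger complex (3), and the fibrous corona with its motor (2). All 36 were found in the counts, and 34 passed the filter on low counts that precedes the test. RNA was sequenced from NCI-H146 (H146), an established small-cell lung cancer (SCLC) line, on day 2 after transfection. Of the 6 libraries, 3 came from cells that received a negative control siRNA (genotype WT) and 3 from cells that received KIFC1 siRNA (*KIFC1* knockdown). Each group is 1 cell line and 1 siRNA label. The library names of the knockdown group share the prefix KD_2, and the names do not say what its number stands for. Effects of the siRNA used on other genes cannot be told apart from effects of *KIFC1* loss. *KIFC1* is a minus-end-directed kinesin motor known for gathering extra centrosomes into a pair of spindle poles, and the comparison addresses what its loss does to the mRNAs of the machinery that joins chromosomes to that spindle.

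The kinetochore is a layered protein assembly built on each centromere. *CENPA*, a variant of histone H3, marks the centromere, and a constitutive network of CENP proteins sits on *CENPA* nucleosomes through the cell cycle. In mitosis this network recruits the Mis12, Knl1 and Ndc80 complexes, of which Ndc80 grips spindle microtubules, the Ska complex strengthens that grip, and the chromosomal passenger complex corrects faulty attachments. Many of these genes are transcribed mainly in G2 and M phase, so that their mRNA levels in a bulk sample depend on how many cells are dividing.

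The libraries held between 15392374 and 17754458 counts, and mitochondrial genes took 8.34% to 13.1% of them. *KIFC1* itself was counted 14, 4 and 14 times in controls and 1, 1 and 0 times after KIFC1 siRNA. Its level was 0.618 ± 0.32 CPM (counts in a library scaled to 1000000; SD, n = 3) in controls. This mean was 3.23-fold above the KIFC1 siRNA group with each knockdown library set at a floor of 3 counts. The control with 4 counts lay close to that floor, so the fold does not cover the spread of the controls. The floor covers counting error only. The 8 neuroendocrine SCLC markers had summed levels of 2940 to 3350 CPM in controls and 3060 to 3600 CPM after KIFC1 siRNA, and *NEUROD1*, at 0 to 5 counts per library, was near absent. The 3 non-neuroendocrine markers summed to 0.0545 to 0.501 CPM and 0.245 to 1.38 CPM, and 1 of them had at most 3 counts in every library. The 8 markers of other cell types summed to 13.3 to 20.2 CPM and 15.7 to 19.1 CPM, with 2 of 8 at 3 counts or fewer throughout.

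The mRNAs of one complex were not present at one level. To compare genes, CPM (scaled between libraries by edgeR's TMM method) was divided by the length of each gene's exons in kilobases, giving CPM per kb. The lengths are those annotated, so exon bases that these cells do not use lower the value. Which exon bases are used was not tested. In control cells the highest level was that of *ZWINT*, a partner of *KNL1*, at 76.2 ± 1.46 CPM per kb (SD, n = 3), followed by *CENPW*, a histone-fold protein of the centromere network, at 73.4 ± 9.36. *BIRC5* (survivin), which brings the chromosomal passenger complex to centromeres, came next at 56.4 ± 7.11. The ranges of the *ZWINT* and *CENPW* libraries overlapped. Of the 33 pairs of neighbours in this order, 26 overlapped and 7 did not: *BIRC5* lay above *CDCA8*, *CENPA* above *CENPU*, *MIS18A* above *CENPO*, *CENPO* above *CENPN*, *KNL1* above *CENPE*, *NSL1* above *CENPL*, and *CENPL* above *CENPP*.

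Within the centromere network the control levels spanned 85.1-fold, from *CENPW* down to *CENPP* at 0.863 ± 0.151 CPM per kb. Before division by length *CENPW* had 62.7 CPM and *CENPP* 8.04 CPM, with annotated exons of 854 and 9315 bases. *CENPX*, a DNA-binding histone-fold partner in the *CENPT* group, had 29.8 ± 3.19, *CENPH* 23.8 ± 3.06 and *CENPM* 19.5 ± 1.69. *CENPU*, *CENPK*, *CENPO*, *CENPN* and *CENPQ* lay between 13.1 ± 1.84 and 7.8 ± 0.534 CPM per kb. *CENPI*, *CENPT* and *CENPC* followed, from 6.39 ± 0.772 to 3.47 ± 0.201, and *CENPL*, the partner of *CENPN*, had 2.35 ± 0.148. The histone-fold subunits therefore held both high and low places in the order, *CENPT* being 5.64 ± 0.321 against 73.4 for its dimer partner *CENPW*.

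The other roles spanned less. *KNL1*, the large scaffold of the spindle checkpoint, was at 5.63 ± 1.39 CPM per kb, 13.5-fold below *ZWINT*. In the Mis12 complex, which bridges the inner and outer kinetochore, *DSN1* (21.8 ± 1.36) and *MIS12* (20.3 ± 0.956) stood above *PMF1* (6.52 ± 0.959) and *NSL1* (3.3 ± 0.238), a 6.6-fold span. Before division by length their control means were 59.7, 64.0, 16.4 and 45.8 CPM in this order. The annotated exons of *NSL1* cover 13867 bases, with a 3′ UTR of 12255, against 2739 bases for *DSN1*. Its longest transcript, at 13115 bases, is nearly as long as its exons. The 3 measured Ndc80 subunits lay within 1.45-fold of each other: *NUF2* 26.6 ± 1.73, *SPC24* 20.8 ± 1.6 and *NDC80* 18.3 ± 2.53. *SKA2* was at 20.5 ± 3.06 and *SKA3* at 8.54 ± 0.144. In the chromosomal passenger complex *CDCA8* (borealin) had 31.4 ± 0.831 and its scaffold *INCENP* 27.2 ± 1.86. *CENPF*, a large coiled-coil protein of the corona, had 24.4 ± 3.86 and the kinesin motor *CENPE* 3.91 ± 0.37. The *CENPA* loading genes were the most even, from *OIP5* at 15.6 ± 0.82 to *MIS18A* at 12.2 ± 0.136, a span of 1.28-fold. With the longest transcript as the length in place of all exons, the order within a role was unchanged in 4 of the 8 roles (Knl1, Ska, chromosomal passenger, corona), and the rank correlation over the 34 genes was 0.942.

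**Figure D1:**
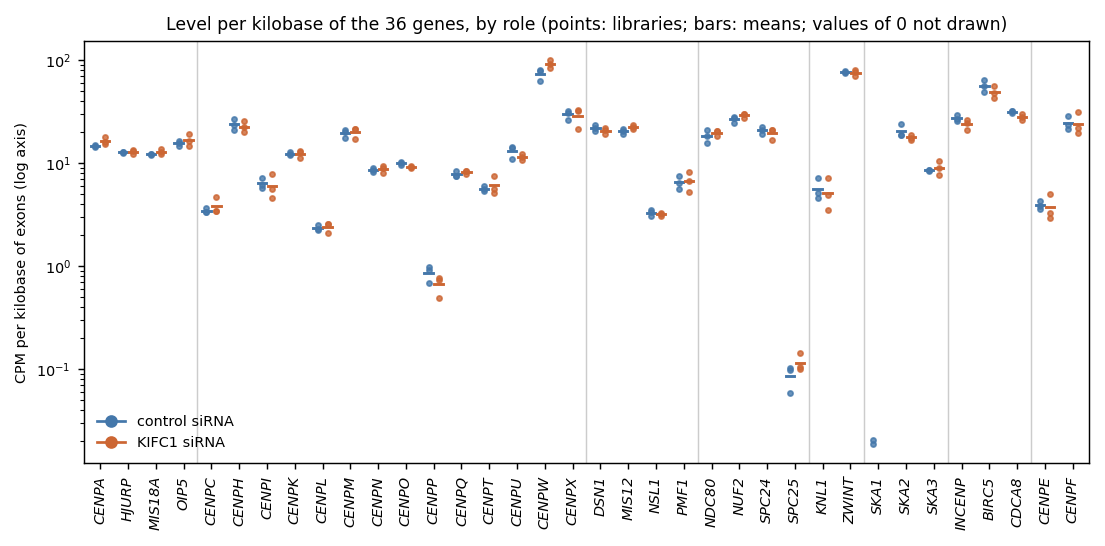
Level of each of the 36 genes in CPM per kilobase of exons (vertical log axis), grouped by role along the horizontal axis, with a point for each of the 3 control siRNA and 3 KIFC1 siRNA libraries and a bar at each group mean. ZWINT and CENPW lie at the top, CENPP is the lowest gene that passed the filter at 0.863 CPM per kb in controls, and SPC25 and SKA1 lie far below (values of 0 are not drawn).

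*SKA1* and *SPC25* had almost no counts. *SKA1*, the microtubule-binding subunit of the Ska complex, had 1, 0 and 1 counts in control libraries and 0 in all 3 KIFC1 siRNA libraries. *SPC25*, which with *SPC24* ties the Ndc80 complex to the inner kinetochore, had 3, 3 and 2 counts in controls and 3, 4 and 3 after KIFC1 siRNA. Both are at or near the floor of 3 counts in both groups, so no fold is given. The other 34 genes had 70 to 6580 counts in every library, and the partners of the pair, *SPC24* among them, were amply counted. The genome build GRCh38 holds 261 alternate sequences, second versions of stretches of chromosomes. Of the 32-base words in the exons of *SKA1*, 100% also occur on alternate sequences, and of those of *SPC25*, 96.2%. No other gene of the 36 exceeded 15.3% (*SPC24*). *KIFC1*, with the few counts given above, was also at 100%. Among 45 further kinetochore and centromere genes the highest share was 7.6%. Few counts also occurred without such copies in that list. *KIF2B* had 0 to 1 counts per library, *AURKC* 5 to 17 and *CENPS* 10 to 22, each with a share of 0.0%. Whether the reads of *SKA1*, *SPC25* and *KIFC1* were lost to alternate sequences was not tested, and the sources used here do not say whether alternate sequences were aligned to. No change is read from the counts of *SKA1* and *SPC25*.

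**Figure D2:**
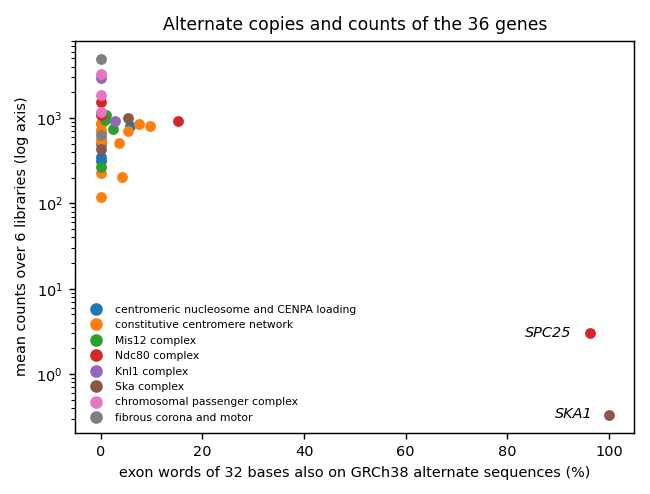
Mean counts over the 6 libraries (vertical log axis) against the percentage of a gene's 32-base exon words that also occur on GRCh38 alternate sequences (horizontal axis), with a point for each of the 36 genes coloured by role. SKA1 (100%) and SPC25 (96.2%) sit alone at the lower right, and all others are at 15.3% or less.

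Promoters of cell cycle genes are known for a few short motifs, the CHR (cell cycle genes homology region), CCAAT boxes and E2F sites. RefSeq (GRCh38.p14) promoters of 250 bases before to 50 after the start were found for 30 of the 36 genes (34 promoters). The letters TTTGAA of the CHR, on either strand, stood in 15 of these 34 promoters (14 genes), 44.1%, against 10.7% of the 16736 promoters of genes tested. CCAAT on either strand stood in 64.7% against 34.7%, and any of the E2F letters TTTCCCGC, TTTGGCGC or TTTCGCGC in 14.7% against 3.92%. No promoter was matched for *MIS18A*, *CENPH*, *CENPL*, *CENPM*, *KNL1* and *BIRC5*. The CHR letters were found for *CENPA*, *HJURP*, *CENPC*, *CENPN*, *CENPO*, *NDC80*, *NUF2*, *SPC25*, *ZWINT*, *SKA1*, *SKA3*, *INCENP*, *CDCA8* and *CENPF*. The promoters of *NUF2*, *CENPA* and *CENPW* are printed 5′ to 3′ on the gene's strand, with these letters in capitals, to set 2 genes that hold the CHR letters beside *CENPW*, the member with the largest positive change, which was chosen after its values were seen. A match describes letters and is not a site of binding.
NUF2, chr1:163321704-163322003, plus strand: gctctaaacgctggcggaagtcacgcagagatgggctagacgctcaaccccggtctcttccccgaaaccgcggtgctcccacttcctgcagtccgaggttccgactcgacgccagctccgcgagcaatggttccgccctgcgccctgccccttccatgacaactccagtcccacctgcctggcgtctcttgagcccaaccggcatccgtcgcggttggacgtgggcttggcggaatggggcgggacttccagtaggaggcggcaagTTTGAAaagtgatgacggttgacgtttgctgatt
CENPA, chr2:26785806-26786105, plus strand: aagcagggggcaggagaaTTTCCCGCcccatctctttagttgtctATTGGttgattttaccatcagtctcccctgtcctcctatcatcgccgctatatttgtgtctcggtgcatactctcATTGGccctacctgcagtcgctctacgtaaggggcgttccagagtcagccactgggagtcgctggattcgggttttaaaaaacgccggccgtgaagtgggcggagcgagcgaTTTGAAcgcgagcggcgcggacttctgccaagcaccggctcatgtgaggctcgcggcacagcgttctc
CENPW, chr6:126339865-126340164, plus strand: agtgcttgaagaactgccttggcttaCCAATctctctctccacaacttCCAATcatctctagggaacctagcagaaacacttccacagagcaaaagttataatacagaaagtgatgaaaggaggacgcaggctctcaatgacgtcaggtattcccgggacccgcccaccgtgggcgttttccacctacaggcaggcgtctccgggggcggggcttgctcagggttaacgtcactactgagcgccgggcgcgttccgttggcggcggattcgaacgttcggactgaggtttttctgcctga
In *NUF2* the CHR letters begin 16 bases after the start, and in *CENPA* they begin at -18, with CCAAT on the other strand at -205 and -130 and the E2F letters at -232. *CENPW* holds CCAAT at -224 and -202 and neither of the other motifs. No motifs overlapped in these promoters.

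After KIFC1 siRNA the mRNAs of the kinetochore as a group stayed close to their control levels. Log2 fold changes, KIFC1 siRNA against control siRNA, were positive for 17 genes and negative for 17 (16 and 18 with the replicate block, *CENPK* being at 0.00), with a median of -0.01 and quartiles of -0.08 and 0.08. Over the 14776 genes tested the median was 0.01 and the quartiles -0.12 and 0.13. With edgeR's quasi-likelihood test and Benjamini-Hochberg adjustment, 0 of the 34 had an adjusted p under 0.05 (lowest 0.422), against 0.711% of all genes tested (49 higher and 56 lower). At an unadjusted p under 0.05, 1 of 34 passed (2.94%), *CENPW*, against 9.24% of all genes. DESeq2's Wald test and limma-voom also gave 0 adjusted and 1 unadjusted. Without KIFC1 siRNA replicate 3 the unadjusted count was 5 (14.7%), against 18.6% of all genes in that fit. A bulk level does not tell fewer dividing cells from less RNA per cell.

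A change that misses the threshold can still be present, and the 95% confidence intervals give its possible size. The intervals of the 34 genes reached from -0.84 to 0.59 on the log2 scale. For 31 of 34 the whole interval lay within ±0.5, a change of 1.41-fold. The exceptions were *CENPP*, *CENPW* and *KNL1*. For 3 of 34 it lay within ±0.25, or 1.19-fold, and the median half-width of an interval was 0.28. With the replicate number as a block, which is described next, 32 of 34 intervals lay within ±0.5 and 7 within ±0.25, and the median half-width was 0.20. Changes of the sizes that these intervals hold could still be present at this depth and number of libraries. The intervals are for single genes and are not adjusted over all genes tested. A change beyond the half-width can therefore still miss an adjusted p under 0.05.

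Libraries with the same replicate number deviated together, so the fit was also made with the replicate number as a block. In that fit 1 of the 34, *CENPW*, passed an adjusted p of 0.05 (2.94%), against 5.78% of all genes tested. At an unadjusted p under 0.05, 5 of 34 passed (14.7%), *CENPW* higher and *CENPP*, *BIRC5*, *INCENP* and *SKA2* lower, against 17.7% of all genes. These shares lie at or under those of all genes. In 14 genes (41.2%) the change had the same sign in all 3 pairs, 6 higher and 8 lower, against 38.9% of all genes. The control and KIFC1 siRNA libraries did not overlap for 6 genes (17.6%), against 15.5% of all genes. Of these 6, *CENPA*, *MIS18A*, *CENPW* and *MIS12* were higher and *CENPO* and *CDCA8* lower.

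**Figure D3:**
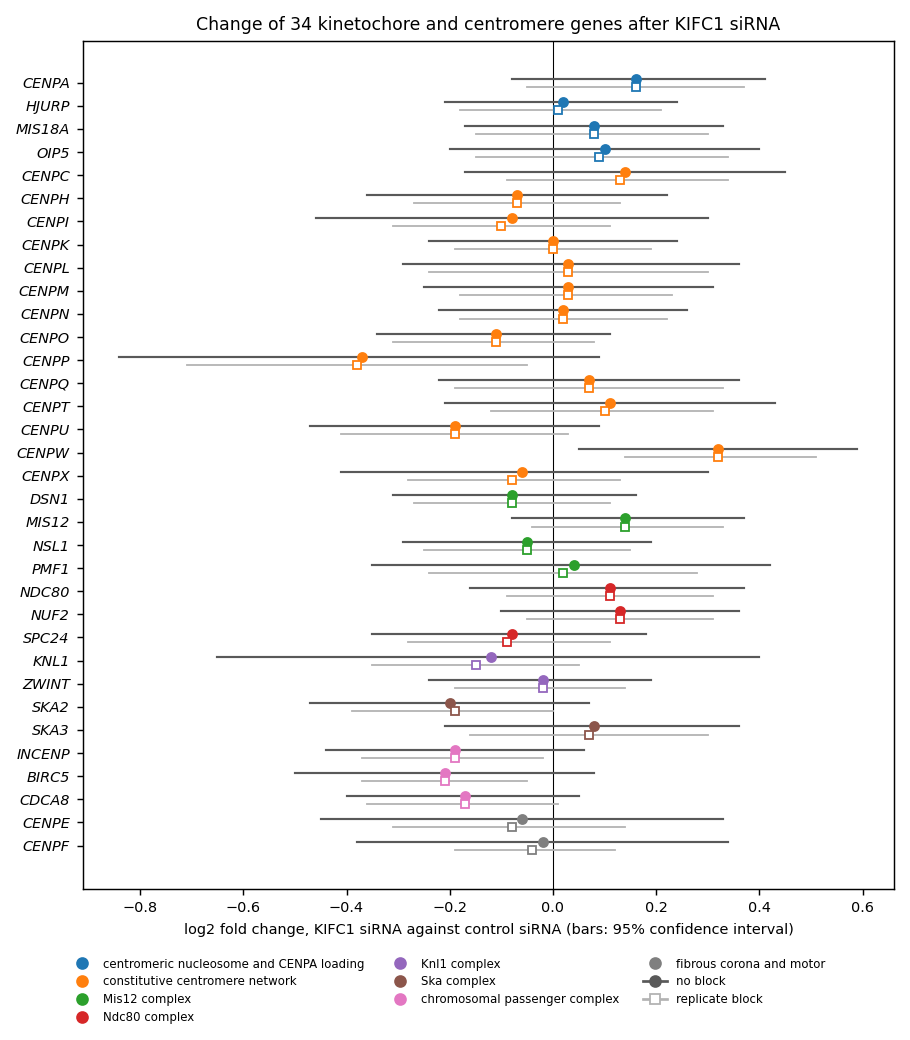
Log2 fold change of each of the 34 genes tested, KIFC1 siRNA against control siRNA, with 95% confidence intervals, coloured by role. Filled circles are the edgeR fit without a block and open squares the fit with the replicate block. The interval of CENPW lies above 0 in both fits, from 0.05 to 0.59 and from 0.14 to 0.51.

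All 4 genes of the centromeric nucleosome and its loading had positive log2 fold changes and none passed the test. *CENPA*, the histone variant itself, had 29.5, 28.9 and 27.7 CPM in control libraries and 35.1, 31.4 and 30.1 CPM after KIFC1 siRNA. Every KIFC1 siRNA library was above every control library. The means were 28.7 ± 0.89 and 32.2 ± 2.59 CPM (SD, n = 3), and the log2 fold change was 0.16 (SE 0.11, edgeR adjusted p = 0.764). *MIS18A*, a subunit of the Mis18 complex that licenses new *CENPA*, had 20.8, 20.6 and 20.4 CPM against 21.5, 20.9 and 23.0, a log2 fold change of 0.08. *OIP5*, its partner in that complex, was at 0.10, and *HJURP*, the chaperone that deposits *CENPA*, at 0.02. Exons of *OIP5-AS1* on the opposite strand cover 63.2% of the exons of *OIP5*, and the strand setting of the counting was not given in the sources used here, so reads of the 2 genes may not be separated. Of the 36 genes, 14 share exonic bases with another gene, 7 of them over more than 10% of their exons (*OIP5*, *CENPP*, *CENPO*, *PMF1*, *CENPU*, *CENPN* and *CENPT*). Reads of these genes may likewise not be separated. For *PMF1* and *CENPN* the overlap of more than 10% is on the same strand, which no strand setting separates.

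In the constitutive centromere network 8 of 14 genes were positive and 6 negative. *CENPW*, which pairs with *CENPT* in a histone-fold complex on centromeric DNA, had 68.1, 66.5 and 53.5 CPM in controls and 85.5, 78.2 and 71.0 CPM after KIFC1 siRNA. The groups did not overlap, and each KIFC1 siRNA library was above the control of the same number, by 0.33, 0.23 and 0.41 on the log2 scale. The means were 62.7 ± 8.0 and 78.2 ± 7.27 CPM (SD, n = 3). The log2 fold change was 0.32 (SE 0.12), with an edgeR p of 0.0254 and an adjusted p of 0.422. With the replicate block the SE was 0.09 and the adjusted p 0.0302 in the same edgeR test, and over the 14 alternatives run the adjusted p lay between 0.0302 and 1.0. Of its partners, *CENPT* was at 0.11 (adjusted p = 0.9, edgeR) and *CENPX*, also of the histone-fold group, at -0.06 (adjusted p = 0.963, edgeR). Their intervals overlapped that of *CENPW*, and whether it differed from them was not tested.

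*CENPP*, of the *CENPO* group, had 8.58, 6.45 and 9.09 CPM in controls and 6.9, 4.61 and 7.1 CPM after KIFC1 siRNA. It was lower in all 3 pairs, while the groups overlapped. The means were 8.04 ± 1.4 and 6.2 ± 1.38 CPM (SD, n = 3), and the log2 fold change was -0.37 (SE 0.21; edgeR adjusted p = 0.68, and 0.199 to 1.0 over the alternatives, lowest with the replicate block). The log2 fold change of *CENPP* ran from -0.51 to -0.21 over the alternatives. It has the lowest counts of the 34 genes, and exons of *IPPK* on the opposite strand cover 39.9% of its own. In the same group *CENPU* had a log2 fold change of -0.19, *CENPO* -0.11 and *CENPQ* 0.07. *CENPO* overlaps exons of *ADCY3* over 27.0% of its length. The genes of the *CENPH* group were at -0.07 (*CENPH*), -0.08 (*CENPI*), 0.00 (*CENPK*) and 0.03 (*CENPM*). *CENPC*, which reaches from the nucleosome to the Mis12 complex, was at 0.14, and *CENPN*, which reads the *CENPA* nucleosome, and *CENPL* at 0.02 and 0.03.

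In the Mis12 complex 2 genes were positive and 2 negative. *MIS12* had 60.9, 66.9 and 64.4 CPM in controls and 67.2, 71.5 and 73.5 CPM after KIFC1 siRNA. The groups did not overlap, and all 3 pairs were higher. The means were 64.0 ± 3.02 and 70.7 ± 3.24 CPM (SD, n = 3), and the log2 fold change was 0.14 (SE 0.10, edgeR adjusted p = 0.775). The log2 fold changes of *PMF1*, *NSL1* and *DSN1*, the other subunits, were 0.04, -0.05 and -0.08. *PMF1* shares 23.3% of its exons with the readthrough gene *PMF1-BGLAP* on the same strand.

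The microtubule-binding arm of the Ndc80 complex, *NDC80* with *NUF2*, had log2 fold changes of 0.11 and 0.13. *NUF2* had 93.9, 91.5 and 82.8 CPM in controls and 101, 91.0 and 102 CPM after KIFC1 siRNA. The groups overlapped at KIFC1 siRNA replicate 2. Its means were 89.4 ± 5.82 and 97.7 ± 5.88 CPM (SD, n = 3; SE of the log2 fold change 0.11, edgeR adjusted p = 0.81). *SPC24*, of the inner arm, was at -0.08. The 3 genes thus differed in sign while each interval held 0.

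*KNL1* varied more between libraries than between groups. It had 52.8, 46.6 and 73.8 CPM in controls and 50, 35.8 and 73.4 CPM after KIFC1 siRNA. In both groups replicate 3 was the highest library and replicate 2 the lowest. The means were 57.7 ± 14.2 and 53.1 ± 18.9 CPM (SD, n = 3), and the log2 fold change was -0.12 (SE 0.24, edgeR adjusted p = 0.94). With the replicate block the log2 fold change was -0.15 and its SE 0.10, and the adjusted p lay between 0.363 and 1.0 over the alternatives. *ZWINT*, its partner, ran from 177 to 184 CPM in controls and from 165 to 189 CPM after KIFC1 siRNA, a log2 fold change of -0.02.

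Of the Ska complex, *SKA2* had 77.7, 61.2 and 60.0 CPM in controls and 60.9, 54.7 and 57.4 CPM after KIFC1 siRNA. All 3 pairs were lower, control replicate 1 stood above the other libraries, and the groups overlapped. The means were 66.3 ± 9.9 and 57.6 ± 3.1 CPM (SD, n = 3), and the log2 fold change was -0.20 (SE 0.12; edgeR adjusted p = 0.709, and 0.28 to 0.972 over the alternatives, lowest with the replicate block). Over the same alternatives the log2 fold change of *SKA2* ran from -0.27 to -0.07, the value nearest 0 being that without control siRNA replicate 1. *SKA3*, which joins the complex to Ndc80, was at 0.08.

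The 3 chromosomal passenger genes among the members all had negative log2 fold changes and were lower in each of the 3 pairs, and none passed the test. Over all genes tested, 38.9% had the same sign in all 3 pairs. The kinase *AURKB* is in the list of other kinetochore and centromere genes and is not covered by this statement. *BIRC5* had 243, 214 and 188 CPM in controls and 215, 182 and 161 CPM after KIFC1 siRNA. The groups overlapped, since the lowest control lay below the highest KIFC1 siRNA library. The means were 215 ± 27.1 and 186 ± 27.1 CPM (SD, n = 3), and the log2 fold change was -0.21 (SE 0.13; edgeR adjusted p = 0.716, and 0.124 to 0.978 over the alternatives, lowest with the replicate block). Over the same alternatives the log2 fold change of *BIRC5* ran from -0.33 to -0.11, with -0.11 without control siRNA replicate 1 and -0.12 without KIFC1 siRNA replicate 3. *INCENP* had 118, 115 and 131 CPM in controls and 110, 92.5 and 116 CPM after KIFC1 siRNA, a log2 fold change of -0.19 (edgeR adjusted p = 0.702, and 0.187 to 1.0 over the alternatives). Over the alternatives this log2 fold change ran from -0.26 to -0.11. *CDCA8* had 76.8, 76.8 and 73.3 CPM against 71.9, 66.6 and 62.9, with no overlap, a log2 fold change of -0.17 (edgeR adjusted p = 0.702, and 0.325 to 1.0 over the alternatives). Over the alternatives this log2 fold change ran from -0.22 to -0.13.

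The corona genes *CENPE* and *CENPF* had log2 fold changes of -0.06 and -0.02. *CENPE* had 35.7, 38.0 and 42.9 CPM in controls and 32.7, 29.4 and 49.8 CPM after KIFC1 siRNA. Replicate 3 was the highest library of both groups, and the KIFC1 siRNA libraries lay on either side of the controls. Its means were 38.8 ± 3.67 and 37.3 ± 11.0 CPM (SD, n = 3; SE of the log2 fold change 0.18, edgeR adjusted p = 0.967). *CENPF* ran from 265 to 358 CPM in controls and from 246 to 386 CPM after KIFC1 siRNA, again with replicate 3 highest in both.

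**Figure D4:**
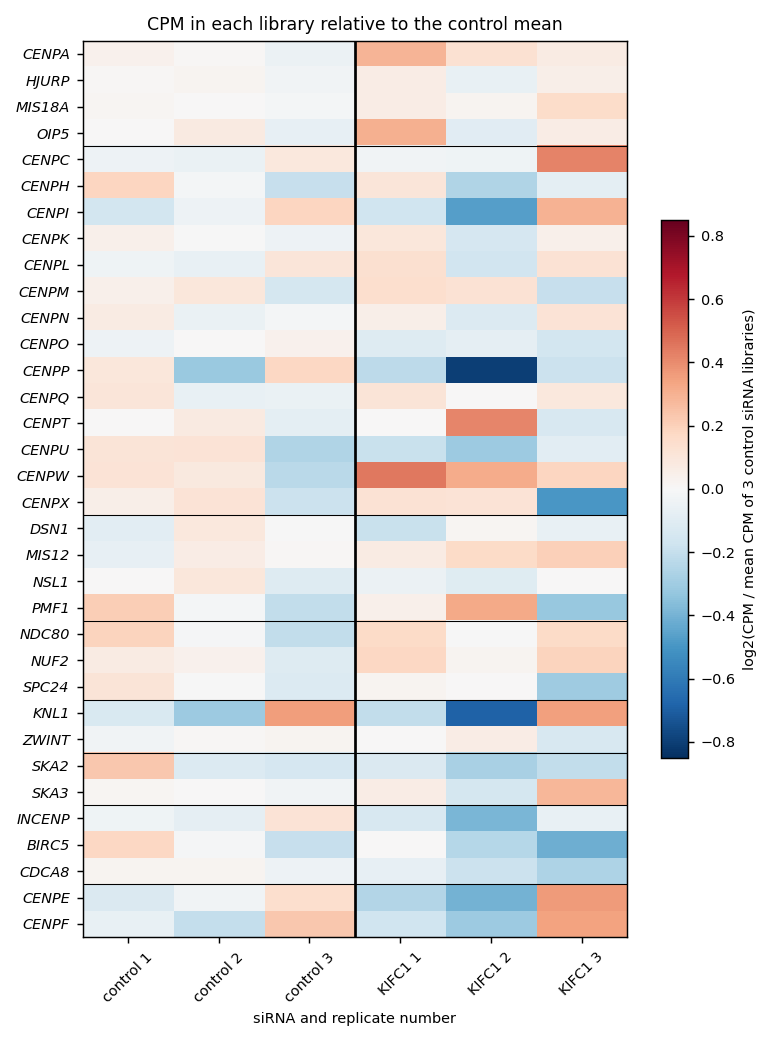
Level of the 34 genes tested in each library as log2 of CPM over the mean of the 3 control siRNA libraries, in colour, with libraries by siRNA and replicate number across and genes by role downwards. CENPW is above the control mean in all 3 KIFC1 siRNA libraries, the chromosomal passenger genes are at or below it, and KNL1, CENPE and CENPF are high in replicate 3 of both groups.

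The spread between libraries went with the length of the mRNA. In each library the deviation of a gene from its group mean (log2 CPM) was set against the length of its longest transcript on a log scale. Over the 34 genes, which share each library and its depth, the correlation was 0.71 in control replicate 3 and 0.74 in KIFC1 siRNA replicate 3, and between -0.46 and -0.57 in the other 4 libraries. Over the 14322 genes with a length it was 0.29 and 0.39 in the replicate 3 libraries and -0.14 to -0.29 in the others. After the pattern was seen, 7 genes over 5000 bases (*CENPC*, *CENPI*, *CENPP*, *NSL1*, *KNL1*, *CENPE* and *CENPF*) and 7 under 1500 bases (*CENPA*, *OIP5*, *CENPH*, *CENPM*, *CENPW*, *CENPX* and *PMF1*) were set apart. The long genes had a median deviation of 0.39 in KIFC1 siRNA replicate 3, with 7 of 7 above 0, and of -0.30 in KIFC1 siRNA replicate 2, with 0 of 7 above 0. In control replicate 3 it was 0.19, with 6 of 7 above 0. The short genes had medians of -0.18 and -0.14 in the replicate 3 libraries, with 0 of 7 above 0 in both.

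Replicate 3 is present in both groups. The log2 fold change of the 34 genes correlated with length at -0.42, against -0.13 over the 14322 genes. The median log2 fold change of the 7 long genes was -0.06 (-0.08 with the replicate block) and that of the 7 short ones 0.04 (0.03 with the block). *CENPW* is the shortest of the 34, with a longest transcript of 809 bases, and it was lowest in replicate 3 of both groups while its change had the same sign in every pair. The part that length plays in its change was not tested.

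Summed over the 36 genes, the mRNA level was 2184, 2099 and 2137 CPM in controls and 2126, 1968 and 2179 CPM after KIFC1 siRNA. The groups overlapped, with KIFC1 siRNA replicate 2 the lowest library.

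Around these genes, a list of 45 other kinetochore and centromere genes (checkpoint proteins, Aurora kinases, further motors, adaptors and chromatin factors) held 44 genes that were tested. Their log2 fold changes were positive for 25 and negative for 19, with a median of 0.01, against 0.01 over all genes. In edgeR 0 passed an adjusted p under 0.05 (lowest 0.0898), and 5 passed an unadjusted p under 0.05, 4 higher and 1 lower (11.4%, against 9.24% of all genes). In DESeq2 2 passed the adjusted p (4.55%), against 1.78% of all genes. *TTK*, the kinase that starts the spindle checkpoint, had 67.5, 52.2 and 55.9 CPM in controls and 95.9, 72.7 and 99.3 CPM after KIFC1 siRNA. The groups did not overlap, and the log2 fold change was 0.61 (SE 0.14; edgeR adjusted p = 0.0898, and 8.91e-05 with the replicate block). *BOD1*, which helps orient chromosomes on the spindle, had a log2 fold change of 0.47 (edgeR adjusted p = 0.118, and 0.00219 with the block). *TRIP13*, an ATPase that remodels the checkpoint protein MAD2, was at 0.38 (adjusted p = 0.176, and 0.00525 with the block, edgeR). *MAD2L1*, the gene of MAD2, was at 0.25 (adjusted p = 0.497, and 0.107 with the block, edgeR). *CLASP1*, which promotes microtubule growth at kinetochores, was the lower one at -0.30 (adjusted p = 0.387, and 0.0208 with the block, edgeR). With the block 3 of the 44 were thus called higher and 1 lower (9.09%), against 5.78% of all genes. Over the alternatives the adjusted p of *TTK* lay between 8.91e-05 and 0.456, of *BOD1* between 0.00219 and 0.574, of *TRIP13* between 0.00525 and 0.697, and of *CLASP1* between 0.0208 and 0.946.

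Genes of the dividing cell more widely were set beside them, since kinetochore mRNAs move with the cell cycle. Of 24 G2 and M phase genes 18 were positive and 6 negative, with a median log2 fold change of 0.07, and 0 were called in edgeR or DESeq2 (2 at an unadjusted p under 0.05 in edgeR, 1 higher and 1 lower, 8.33%). Of 24 G1 and S phase genes 9 were positive and 15 negative, with a median of -0.01, and 0 were called in edgeR or DESeq2 (1 at an unadjusted p under 0.05 in edgeR, lower, 4.17%). With the replicate block *MKI67* (Ki-67, a marker of cycling cells) was called lower, at -0.33 (adjusted p = 0.0093, and 0.689 without the block, edgeR). It had 465, 412 and 557 CPM in controls and 328, 319 and 515 CPM after KIFC1 siRNA. The groups overlapped, and replicate 3 was the highest library of both. The G1 and S phase genes *CHAF1A*, a histone chaperone of replication, and *E2F1*, a transcription factor of S phase entry, were also lower with the block, at -0.33 and -0.31 (adjusted p = 0.0279 and 0.0402, edgeR). Without the block their adjusted p was 0.247 and 0.697 (edgeR). The genes called with the block are 4.17% and 8.33% of the 2 lists, against 5.78% of all genes.

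The 3′ UTRs of the 34 genes were examined for the words GAGATCT and GCAACC, which were found on these same libraries and so are not independent evidence. GAGATCT occurs in 2 of 34 (5.88%), with 1 copy in *CENPP* and 5 in *NSL1*, against 8.96% of 12973 genes tested. The log2 fold changes of these 2 genes were -0.37 and -0.05. GCAACC occurs in 11 of 34 (32.4%), against 23.2%. *CENPW*, with a 3′ UTR of 383 bases, holds neither. The median 3′ UTR was 945 bases in the 34 genes and 1341 bases over all genes with one.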

How the data were processed

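RNA was sequenced from H146 cells transfected with negative control siRNA or KIFC1 siRNA (3 libraries each, called biological replicates, with nothing further on separate cultures, so p-values measure the spread between these libraries). The authors aligned reads to GRCh38 with HISAT2 2.2.1 and deposited whole-number counts per gene from featureCounts 2.0.8, without normalization. The submitters' processing notes also name DESeq2 1.46.0 and R 4.4.2. Annotation, strand setting and handling of multiply aligned reads are not given in the sources used here. Depth was 15392374 to 17754458 counts per library.

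Of 28395 gene IDs, 27745 matched a symbol. After filterByExpr, which kept 14776 of the 23245 genes with a count, and TMM scaling, edgeR 4.0.16 (R 4.3.3) fitted a robust quasi-likelihood model. Its two-sided p-values were adjusted by Benjamini-Hochberg over all genes kept, with a threshold of 0.05. The biological coefficient of variation was 13.1%. The test was tested on simulated data. After removal of group means, libraries of the same replicate number correlated at 0.484, 0.414 and 0.491 over 11758 genes (mean log2 CPM of at least 2) and those of different numbers at -0.457 to 0.0234. The numbers were therefore taken to pair the libraries, from the data and not from the labels, and the blocked fit is an alternative. Removal of group means makes the values for different numbers offset those for the same number. The contrast between them is thus partly built in. The calls of the blocked fit come from the same libraries that gave the pairing. Lengths and overlaps are from GENCODE annotation of GRCh38 and promoters from RefSeq. Alternatives used limma 3.58.1 (voom), DESeq2 1.42.0, other scalings and filters, and each library left out. Other computing used Python 3.11.15.

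The genes, lists and tests were chosen with earlier results of these data known. Given in full were members past a threshold (adjusted p in either fit, unadjusted p without the block) and the member of each role with the largest absolute log2 fold change. Genes of the other kinetochore list were named at an unadjusted p under 0.05. *INCENP* and *CDCA8*, *TTK*'s values per library and the cell cycle genes called with the block were added after their values were seen.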

Additional observations from a re-analysis of the deposited data

How the results depend on the processing

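Under the 14 alternatives, 30 of the 476 values for single genes of the kinetochore changed sign and 1 passed the threshold. The other 445 did neither, and they include the values of *CENPK*, described below. The genes called over the whole table numbered 105, and 263 with DESeq2, 265 with no filter on low counts, 854 with the replicate block and 24 to 468 with each library left out, the highest without KIFC1 siRNA replicate 3. With the replicate block 1 kinetochore gene was called and 5 passed an unadjusted p, and with a library left out 1 to 5 passed it. Of the other kinetochore list, 2 were called with DESeq2, 1 with no filter, 4 with the block and 0 to 2 with a library left out. The block called 1 G2 and M phase gene and 2 G1 and S phase genes, and leaving out a library called 0 to 1 of the former. Outside the other kinetochore list, the block changed no other call on a kinetochore gene. The median log2 fold change ran from -0.02 to 0.06 with a library left out, and it was highest without KIFC1 siRNA replicate 2.

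Signs are compared at 2 decimals. *CENPK*, at 0.00, has no direction to keep, and its values are not counted as sign changes. It ran from -0.05 to 0.06, being negative also with other scalings and tests. The 30 sign changes came from leaving out a library, in 17 genes with an absolute log2 fold change of at most 0.14. Their ranges on the log2 scale were -0.01 to 0.05 for *HJURP*, -0.02 to 0.18 for *OIP5*, -0.03 to 0.22 for *CENPC*, -0.16 to 0.03 for *CENPH*, -0.31 to 0.07 for *CENPI*, -0.01 to 0.12 for *CENPL*, -0.04 to 0.13 for *CENPM*, -0.03 to 0.08 for *CENPN*, -0.07 to 0.22 for *CENPT*, -0.16 to 0.12 for *CENPX*, -0.14 to 0.19 for *PMF1*, -0.14 to 0.01 for *SPC24*, -0.43 to 0.10 for *KNL1*, -0.07 to 0.03 for *ZWINT*, -0.04 to 0.17 for *SKA3*, -0.32 to 0.08 for *CENPE* and -0.24 to 0.11 for *CENPF*. Depth and the number of libraries, 3 per group, limit what can be detected. The intervals given with the fold changes are not adjusted over all genes tested, so their widths are not the limit of detection. Where a library is left out its group rests on 2.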
